A study of Mus musculus with 8 samples.

Results

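The trophoblast is the outer lineage of the early mouse embryo, which builds the fetal part of the placenta. It was examined here through 8 transcription factor genes, Ascl2, Esx1, Cdx2, Eomes, Elf5, Gata3, Tfap2c and Hand1. They were chosen by name as regulators of trophoblast, with earlier results of these data known. Their values were read out in all 8 deposited tables, which list 23389 gene symbols each. All 8 genes had a row in each table.

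Cdx2, Eomes, Elf5, Gata3 and Tfap2c take part in setting up and keeping the trophectoderm and the trophoblast stem cell, the dividing precursor of the placenta. Ascl2 is needed for the spongiotrophoblast layer, Hand1 for trophoblast giant cells and Esx1 for the labyrinth, where fetal and maternal blood exchange nutrients. Embryonic stem cells come from the other early lineage, the epiblast, and hold most of the trophoblast program silent through the factor Oct4 and through DNA methylation of genes such as Elf5. Several of the 8 genes also work elsewhere: Eomes in the primitive streak, Gata3 in T cells and breast epithelium, Hand1 in heart and lateral mesoderm, and Tfap2c in germ cells.

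The series asked how induced pluripotent stem (iPS) clones made with fewer factors and interleukin 6 compare with standard clones and reference cells. It holds 8 poly-A RNA-seq libraries in 4 groups with 2 libraries in each. The 3F+IL6 group is a pair of separately derived iPS clones made with 3 factors and treated with IL6 at 10 ng/mL, of BALB/c background. The 4F group is a pair of separately derived iPS clones made with 4 factors, also BALB/c, for which no IL6 treatment is labelled. 3F is the usual name for Oct4, Klf4 and Sox2, and 4F for the same genes with c-Myc. The ES group is D3 embryonic stem cells that carry GFP, of 129S2/SvPas background, in biological replicates. The MEF group is mouse embryonic fibroblasts, BALB/c, in biological replicates. Factor set and IL6 change together between the kinds of clone, and strain and cell type change together in each comparison with ES, so neither pair can be told apart. Each iPS library is a single clone, and fewer cells of a type and less RNA per cell cannot be told apart in these bulk libraries.

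Levels are in RPKM, reads scaled to the length of the transcript and to the size of the library, as the authors deposited them. Estimated depth was 11800000 to 18100000 reads per library. For 7 of the 8 genes, Eomes being the exception, the values in all libraries were whole multiples of the value of a single read, so that read numbers could be given too. Intervals on reads are exact 95% Poisson intervals and cover counting error only. The ES and clone libraries carried Pou5f1 (Oct4) at 938 to 1010 RPKM and the MEF libraries at 1.88 in both. A clone that stood apart was 3F+IL6 clone 2: its summed level of 10 primitive streak and mesoderm markers was 11.6 RPKM, against 1.49 to 2.87 in the other libraries. The median SD of log2(RPKM + 1) over genes was 0.129 between the 3F+IL6 clones, 0.0722 between the 4F clones, 0.0398 in ES and 0.0351 in MEF. Summed levels of 6 fibroblast markers were 122 to 222 RPKM in the clones, 9.21 and 9.64 in ES and 2510 to 2520 in MEF. None of the 6 was at 0 in any library, ES included, and the part of fibroblast RNA in the values of the clones was not tested.

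The 8 trophoblast genes did not move together. In ES cells Tfap2c and Esx1 were the highest of the 8 genes, Eomes and Hand1 were lower, Cdx2 was a trace and Ascl2 and Elf5 were near 0. Both kinds of iPS clone carried next to no Cdx2 and less Esx1, Eomes and Gata3 than ES, while Ascl2 was 23.7-fold and 30.1-fold higher in reads. Fibroblasts carried Gata3 and little else.

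**Figure D1:**
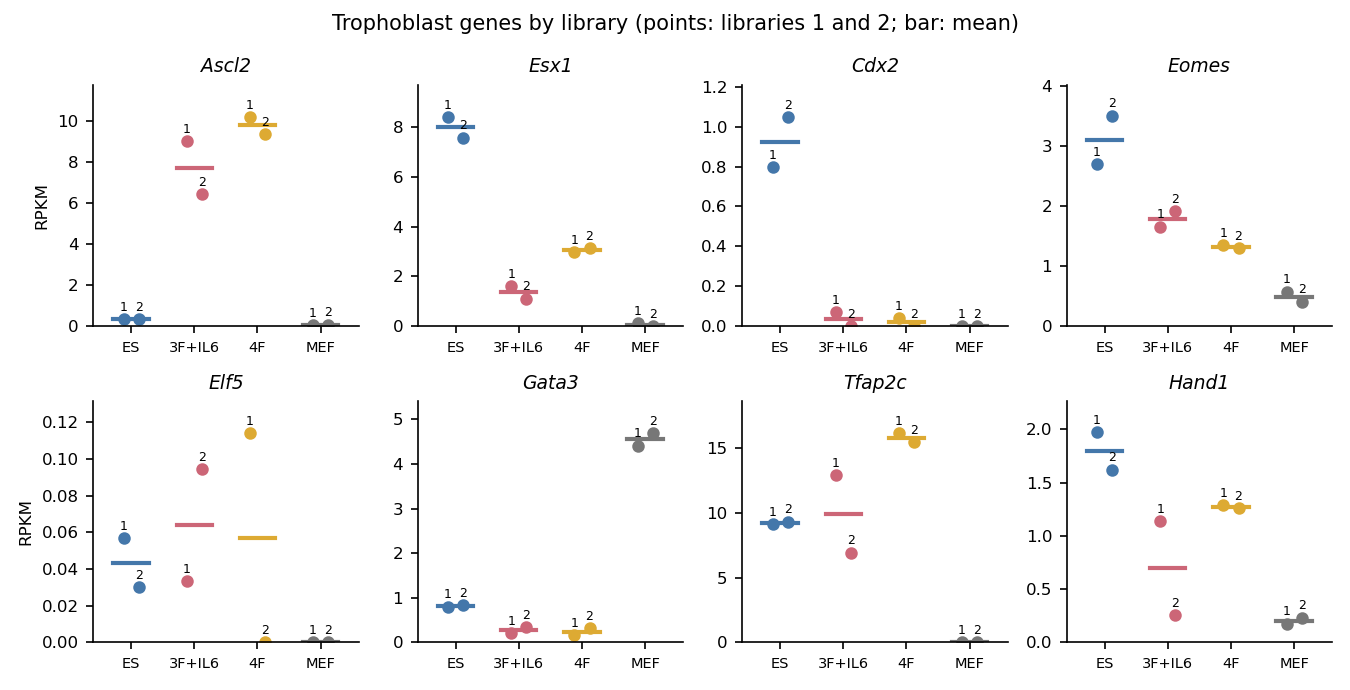
RPKM of the 8 trophoblast genes (vertical axes, each from 0 with its own scale) in the 4 groups (horizontal axis). Points are libraries, numbered 1 and 2, and bars are group means. Ascl2 is high in the 4 iPS clones, Esx1, Cdx2 and Eomes are highest in ES, Gata3 in MEF, and the 3F+IL6 clones lie apart in Tfap2c and Hand1.

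Ascl2 (chr7:142966829-142969264, minus strand, mm10), a basic helix-loop-helix factor of the ectoplacental cone and spongiotrophoblast, was at 0.316 and 0.332 RPKM in ES, 9.01 and 6.42 in 3F+IL6, 10.2 and 9.36 in 4F and 0.0349 and 0.0684 in MEF. The 4 clones were all far above ES and MEF, with no overlap. In reads these are 8 and 8 in ES, 194 and 147 in 3F+IL6, 193 and 189 in 4F, and 1 and 2 in MEF. The 16 ES reads and the 3 MEF reads are few, so the ratios to those groups have wide intervals. Scaled to depth, 3F+IL6 held 23.7 times the reads of ES (95% interval 14.4 to 41.9) and 4F held 30.1 times (18.3 to 53.2). Against MEF the ratios were 148 (50.2 to 721) and 188 (63.9 to 916).

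Esx1 (chrX:137115397-137122083, minus strand), a homeobox gene of the X chromosome that acts in the placental labyrinth, ran the other way against ES. It was at 8.41 and 7.58 RPKM in ES, 1.59 and 1.1 in 3F+IL6, 2.97 and 3.14 in 4F, and 0.106 and 0 in MEF. The groups fell in the order ES, 4F, 3F+IL6 and MEF with no overlap between neighbours. Reads were 211 and 181 in ES, 34 and 25 in 3F+IL6, 56 and 63 in 4F, and 3 and 0 in MEF. ES held 5.98 times the reads of 3F+IL6 (95% interval 4.54 to 8.01) and 2.61 times those of 4F (2.12 to 3.24). The count of 0 in MEF 2 has a 95% Poisson upper limit of 0.127 RPKM.

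Cdx2 (chr5:147300805-147307270, minus strand), the caudal-type homeobox gene that specifies the trophectoderm, was at 0.796 and 1.05 RPKM in ES and at 0.0692, 0, 0.0393 and 0 in the 4 clones, with 0 in both MEF libraries. That is 27 and 34 reads in ES, 2 and 0 in 3F+IL6, and 1 and 0 in 4F. Both ES libraries lay above every other library. The ratio of reads in ES to 3F+IL6 was 27.5 (95% interval 7.28 to 232) and to 4F 48.4 (8.37 to 1940). Against MEF, with no read in either library, ES was at least 23.8-fold higher, taking 3 reads over the MEF group as the floor. A count of 0 in a clone has a 95% Poisson upper limit of 0.12 RPKM in 3F+IL6 clone 2 and 0.136 in 4F clone 2.

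Promoter sequence is shown for these 3 genes, which part ES from both kinds of clone, Ascl2 being higher in the clones and Esx1 and Cdx2 higher in ES. Eomes and Gata3 also part ES from both kinds of clone, and their promoters are not printed. Each line is the 250 bases before the RefSeq start, 5′ to 3′ on the gene's own strand, from RefSeq on GRCm38.p6, the C57BL/6J reference and not the strains of these cells. Capitals mark CG pairs, the sites of DNA methylation, in Ascl2 (chr7:142969265-142969514, minus strand) and Esx1 (chrX:137120327-137120576, minus strand), and the octamer ATGCAAAT, a motif of Oct4, in Cdx2 (chr5:147307250-147307499, minus strand).
Ascl2: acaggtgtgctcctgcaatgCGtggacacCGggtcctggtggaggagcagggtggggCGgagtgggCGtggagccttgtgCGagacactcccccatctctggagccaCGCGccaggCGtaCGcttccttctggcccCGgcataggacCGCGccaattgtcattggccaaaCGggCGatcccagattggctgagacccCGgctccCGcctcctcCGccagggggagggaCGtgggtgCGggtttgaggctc
Esx1: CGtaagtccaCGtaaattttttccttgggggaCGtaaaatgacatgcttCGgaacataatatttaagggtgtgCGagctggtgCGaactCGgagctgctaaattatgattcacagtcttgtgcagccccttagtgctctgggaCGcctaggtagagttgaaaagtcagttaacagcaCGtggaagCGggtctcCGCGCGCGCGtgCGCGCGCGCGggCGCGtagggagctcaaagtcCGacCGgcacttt
Cdx2: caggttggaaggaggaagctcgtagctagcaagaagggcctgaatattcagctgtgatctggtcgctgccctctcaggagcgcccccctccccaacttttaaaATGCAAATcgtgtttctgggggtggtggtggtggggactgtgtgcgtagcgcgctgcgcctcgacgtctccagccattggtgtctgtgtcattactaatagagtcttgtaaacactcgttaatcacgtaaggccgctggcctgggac
Ascl2 holds 19 CG pairs and Esx1 24, many of the latter in a run close to the start. Of 32851 RefSeq promoters of this length, 82.1% hold 19 or fewer and 89.3% hold 24 or fewer, with a median of 6. The promoter used for Esx1 lies inside the GENCODE gene, whose longest transcript starts further upstream.

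Motifs were searched on both strands of the same 250 bases for the 6 of 8 genes with a RefSeq promoter entry. The octamer, with its first base at position −147 of Cdx2, occurs in 1.6% of all promoters and in none of the other 5 genes. The AP-2 motif GCCNNNGGC, the kind bound by Tfap2c, was found 3 times in Gata3 and at −16 in Cdx2, against 13.7% of promoters with at least 1. E-boxes, CANNTG, the kind bound by Ascl2 and Hand1 with partners, occur in 66.2% of promoters. Ascl2 holds 2 of them, Esx1 1 and Cdx2 1. Elf5 holds 4 before its first start and 1 before its second, and Eomes and Gata3 hold none. The GATA motif AGATAA (9.99% of promoters) and the T-box motif AGGTGTGA of Eomes (1.12% of promoters) were not found in Ascl2, Esx1, Cdx2, Eomes, Elf5 or Gata3. None of the matches in Cdx2 overlap each other. Matches of letters show neither binding nor its lack.

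Eomes (chr9:118478212-118486132, plus strand), the T-box factor of trophoblast stem cells and of the primitive streak, was at 2.7 and 3.51 RPKM in ES, 1.66 and 1.92 in 3F+IL6, 1.35 and 1.3 in 4F, and 0.573 and 0.404 in MEF. The order was ES, 3F+IL6, 4F and MEF, with no overlap between neighbours. Its exons share 118 bases with Gm33460 on the other strand, and the strand of counting is not given, so reads there cannot be told apart. In 3F+IL6 clone 2, where streak markers were high (T at 1.13 RPKM against 0 to 0.26 elsewhere), Eomes stood at 1.92, next to 1.66 in clone 1. The part of streak-like cells in the Eomes value was not tested.

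Elf5 (chr2:103411688-103450989, plus strand), an ETS factor that keeps trophoblast stem cells in place and is methylated in ES cells, was hardly detected. Its values were 0.057 and 0.03 RPKM in ES, 0.0335 and 0.0945 in 3F+IL6, 0.114 and 0 in 4F, and 0 in both MEF libraries. These are 10 reads over all 8 libraries, at most 3 in any library, so no order between groups was detectable at this depth. The 3 reads of ES and the 4 of 3F+IL6 give a ratio of 1.48 for 3F+IL6 over ES with an interval of 0.251 to 10.1.

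Gata3 (chr2:9857078-9890034, minus strand), a zinc finger factor that acts beside Cdx2 in the trophectoderm, was highest in fibroblasts. It was at 0.8 and 0.841 RPKM in ES, 0.206 and 0.345 in 3F+IL6, 0.156 and 0.318 in 4F, and 4.41 and 4.69 in MEF. MEF lay above ES and ES above all clones, while the kinds of clone overlapped. MEF held 5.55 times the reads of ES (95% interval 4.39 to 7.1), 16.4 times those of 3F+IL6 (11 to 25.6) and 19 times those of 4F (12.1 to 31.8). Its exons share 155 bases with Gm13256 on the other strand and 77 with 9230102O04Rik on its own, and reads there cannot be told apart.

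Tfap2c (chr2:172549593-172558622, plus strand), the AP-2 gamma factor shared by trophoblast and primordial germ cells, was at 9.11 and 9.31 RPKM in ES, 12.9 and 6.92 in 3F+IL6, 16.1 and 15.4 in 4F, and 0.0392 and 0 in MEF. It was the highest of the 8 genes in every ES and clone library and next to absent in fibroblasts. The 4F clones lay above ES, and the 3F+IL6 clones fell on either side of ES, so that those groups overlapped. Reads were 497 in 3F+IL6 clone 1 and 283 in clone 2, 411 and 400 in ES, and 545 and 555 in 4F. MEF held 2 reads and 0, and the ratio of ES to MEF was 475 (95% interval 131 to 3930).

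Hand1 (chr11:57828705-57832818, minus strand), a basic helix-loop-helix factor of giant cells and of the heart, was at 1.97 and 1.62 RPKM in ES, 1.14 and 0.258 in 3F+IL6, 1.29 and 1.26 in 4F, and 0.177 and 0.231 in MEF. ES was highest, and the 4F clones and 3F+IL6 clone 1 lay close together below it. 3F+IL6 clone 2 lay near the MEF libraries, with 7 reads (95% Poisson interval 2.81 to 14.4) against 29 in clone 1 (19.4 to 41.6).

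Differences between groups were tested with limma on log2(RPKM + 1), fitted to all 8 libraries and adjusted by the Benjamini-Hochberg method over the 13200 genes with at least 1 RPKM in at least 2 libraries. A gene is called at an adjusted p under 0.05, and a log2 difference on this scale understates the change of low genes. Of the 8 genes, 6 entered the test. Ascl2 did so only through the clones and Gata3 only through MEF, while Cdx2 and Elf5 were too low. Cdx2 and Elf5 were tested in a fit with no filter, over 19478 genes.

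Against ES, both kinds of clone differed in most trophoblast genes, and the changes went both ways. Ascl2 rose and Esx1, Eomes and Gata3 fell in both kinds, Hand1 fell in 3F+IL6 and Tfap2c rose in 4F. In 3F+IL6, 5 of the 6 genes tested were called, 1 higher and 4 lower. Over all genes 63.4% were called, 33.1% higher and 30.3% lower, so a call by itself sets no gene apart. In 4F, 5 of 6 were called, 2 higher and 3 lower, where 67.2% of all genes were called, 33.7% higher and 33.5% lower. The median of the 6 log2 differences was −0.53 in 3F+IL6 and −0.43 in 4F, where the medians over all genes were 0.01 and 0. Both comparisons use the same ES libraries.

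Ascl2, at 0.324 ± 0.0114 RPKM in ES (SD, n = 2), rose to 7.71 ± 1.83 in 3F+IL6, which is 2.70 on the log2 scale (SE 0.14, limma adjusted p = 1.4e-05). In 4F it rose to 9.76 ± 0.572, which is 3.02 (SE 0.14, limma adjusted p = 9.5e-06). With no filter the limma adjusted p of Ascl2 was 8.4e-05 in 3F+IL6 and 6.2e-05 in 4F. Esx1 fell from 7.99 ± 0.585 RPKM in ES to 1.35 ± 0.347 in 3F+IL6, by 1.95 on the log2 scale (limma adjusted p = 2.8e-05). In 4F it fell to 3.06 ± 0.121, by 1.15 (limma adjusted p = 0.00025). All 4 clones lay on the same side of both ES libraries for Ascl2 and Esx1, and also for Cdx2, Eomes, Gata3 and Hand1. The share of all genes for which this holds was not counted, so it sets no gene apart.

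Eomes, Gata3 and Cdx2 were lower in the clones as well. Eomes fell from 3.1 ± 0.57 RPKM in ES to 1.79 ± 0.181 in 3F+IL6 (log2 difference −0.55, limma adjusted p = 0.0067) and to 1.32 ± 0.0358 in 4F (−0.81, limma adjusted p = 0.001). The 3F+IL6 call of Eomes was lost with array weights (limma adjusted p = 0.082). Gata3 fell from 0.82 ± 0.0289 to 0.275 ± 0.0979 RPKM in 3F+IL6 (−0.52, limma adjusted p = 0.0043) and to 0.237 ± 0.114 in 4F (−0.56, limma adjusted p = 0.0026). With no filter the limma adjusted p of Gata3 was 0.0061 in 3F+IL6 and 0.004 in 4F. Cdx2 fell in the fit with no filter, by 0.89 in 3F+IL6 (limma adjusted p = 0.00023) and by 0.91 in 4F (limma adjusted p = 0.00021), where 47.2% and 49.7% of all genes were called. Elf5 was not called in that fit, with log2 differences of 0.03 and 0.02.

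Of the 6 genes, Tfap2c and Hand1 had the largest SE, 0.23 each, and their 3F+IL6 clones lay far apart. Tfap2c rose in 4F by 0.71 (limma adjusted p = 0.029) and differed by 0.04 in 3F+IL6 (95% interval −0.51 to 0.59, limma adjusted p = 0.89). The 3F+IL6 value rests on which clone is used: it was −0.37 without clone 1 and 0.45 without clone 2, both called. The 4F call of Tfap2c was lost with no filter (limma adjusted p = 0.053) and on leaving out any single ES, 4F or MEF library. Hand1 fell in 3F+IL6 by 0.77 (limma adjusted p = 0.021) and by 0.38 without clone 2, and in 4F its log2 difference was −0.29 (95% interval −0.83 to 0.24, limma adjusted p = 0.28). The 3F+IL6 call of Hand1 was lost without ES 1 or ES 2 and in the fit of only the 4 libraries compared (limma adjusted p = 0.086).

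**Figure D2:**
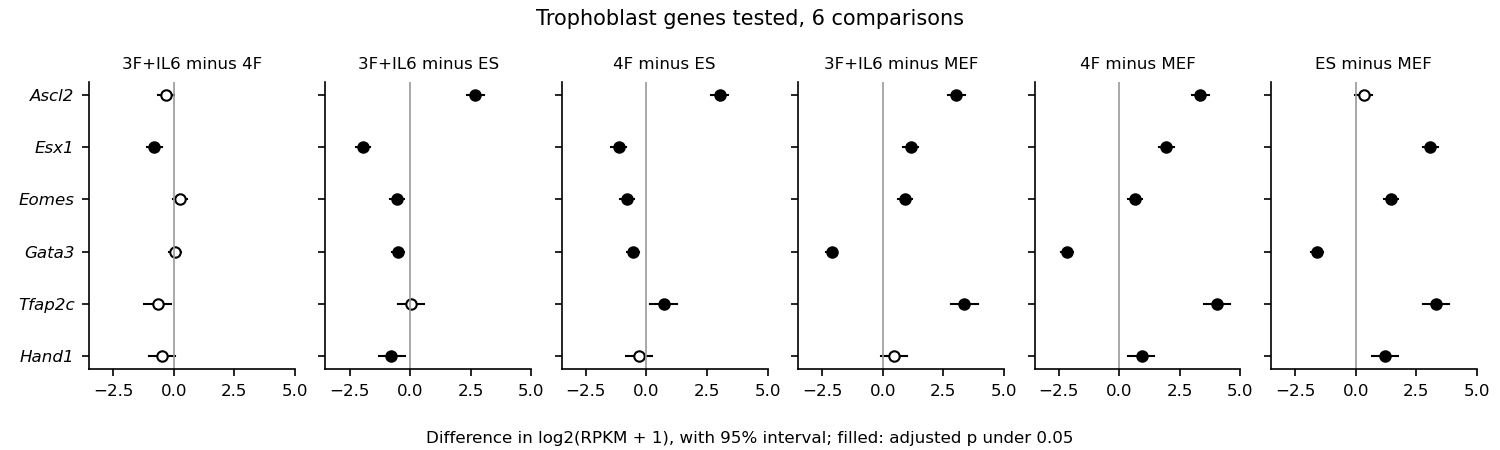
Difference in log2(RPKM + 1) (horizontal axes) for the 6 trophoblast genes that entered the test, in the 6 comparisons named above the panels. Points are limma estimates, lines are 95% intervals and filled points have an adjusted p under 0.05. Ascl2 lies near 3 in all 4 comparisons of clones with ES or MEF, and between the kinds of clone Esx1 is the filled point.

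Between the kinds of clone, Esx1 was the trophoblast gene called. It was lower in 3F+IL6 than in 4F, 59 reads against 119, and 4F held 2.29 times the reads of 3F+IL6 (95% interval 1.66 to 3.18). Of the 6 genes tested, 1 was called, lower in 3F+IL6, against 1.34% of all genes called and 0.568% called lower. For Esx1 limma gave −0.80 on the log2 scale (SE 0.13, 95% interval −1.1 to −0.5, adjusted p = 0.045). Both 3F+IL6 clones were below both 4F clones. The call is narrow: it held in 4 of 17 alternative fits, with adjusted p from 0.0021 to 0.38, the highest in the fit of only these 4 clones.

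Ascl2, Tfap2c and Hand1 also had both 3F+IL6 clones below both 4F clones, but were not called. Their log2 differences were −0.32 (95% interval −0.66 to 0.02, limma adjusted p = 0.23), −0.67 (−1.22 to −0.12, limma adjusted p = 0.15) and −0.47 (−1.01 to 0.06, limma adjusted p = 0.25). Eomes was at 1.79 against 1.32 RPKM, a log2 difference of 0.26 (95% interval −0.03 to 0.56, limma adjusted p = 0.24). Here both 3F+IL6 clones lay above both 4F clones. The share of all genes in which the kinds of clone do not overlap was not counted, so lack of overlap sets no gene apart. Gata3 differed by 0.05 (95% interval −0.2 to 0.29), with overlapping clones. Cdx2 and Elf5 differed by 0.02 and 0.01 in the fit with no filter, neither called, where 0.78% of all genes were called. The values differ with the 3F+IL6 clone used. Without clone 1, so that clone 2 stands alone, 4 of the 6 genes were called lower, Ascl2 (−0.54), Esx1 (−0.95), Tfap2c (−1.08) and Hand1 (−0.85). In that fit 4802 of all 13200 genes were called, 36.4%, against 177 with both clones. Without clone 2, Ascl2 differed by −0.10, Tfap2c by −0.27 and Hand1 by −0.09, none of them called, where 6.2% of all genes were called. In such a fit the lone clone is assumed to vary like the other groups, and the spread between the 3F+IL6 clones drops out of the shared estimate.

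Relative to the fibroblasts from which such clones are commonly made, both kinds of clone carried far more Ascl2 and Tfap2c, more Esx1 and Eomes and less Gata3. Of the 6 genes tested, 5 were called in 3F+IL6, 4 higher and 1 lower, where 82.1% of all genes were called, 49.4% higher and 32.6% lower. In 4F all 6 tested were called, 5 higher and 1 lower, where 83.6% of all genes were called, 49.2% higher and 34.4% lower. Tfap2c rose from 0.0196 ± 0.0277 RPKM in MEF to 9.93 ± 4.25 in 3F+IL6 (log2 difference 3.37, limma adjusted p = 7.8e-06) and 15.7 ± 0.487 in 4F (4.04, limma adjusted p = 2.9e-06). Ascl2 rose by 3.03 (limma adjusted p = 1.3e-06) and 3.35 (limma adjusted p = 7.2e-07). With no filter the limma adjusted p of Ascl2 was 9.2e-06 and 5.7e-06.

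Gata3 was the gene that fell from fibroblasts to clones. It was at 4.55 ± 0.195 RPKM in MEF, and fell by 2.12 in 3F+IL6 (limma adjusted p = 1.5e-06) and by 2.17 in 4F (limma adjusted p = 1.2e-06). With no filter the limma adjusted p of Gata3 was 6.2e-06 and 5.3e-06. Esx1 rose by 1.15 in 3F+IL6 (limma adjusted p = 9.4e-05) and 1.95 in 4F (limma adjusted p = 5.3e-06), and Eomes by 0.91 (limma adjusted p = 0.00032) and 0.64 (limma adjusted p = 0.0019). Cdx2 and Elf5 were not called against MEF in the fit with no filter, where 64.2% of all genes were called in 3F+IL6 and 65.5% in 4F. Hand1 rose in 4F by 0.92 (limma adjusted p = 0.0066) and differed by 0.45 in 3F+IL6 (limma adjusted p = 0.1). Over all genes the median log2 difference against MEF was 0.26 in 3F+IL6 and 0.25 in 4F. With quantile normalization, which levels such a shift, the 4F calls of Hand1 (0.37) and Eomes (0.18) were lost and Hand1 in 3F+IL6 changed sign (−0.12).

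ES and fibroblasts differed in 5 of the 6 genes tested, 4 higher in ES and 1 lower, where 81.7% of all genes were called, 49.7% higher and 32% lower. Tfap2c was higher in ES by 3.32 (limma adjusted p = 7.8e-06), Esx1 by 3.09 (5.5e-07), Eomes by 1.46 (2.3e-05) and Hand1 by 1.21 (0.0017), all from limma, and Gata3 lower, at a log2 difference of −1.61 (5.4e-06). With no filter the limma adjusted p of Gata3 between ES and MEF was 1.8e-05. Ascl2, the gene that set the clones apart, was low in both. Its log2 difference was 0.33 (95% interval −0.01 to 0.67, limma adjusted p = 0.065), although ES held 6.25 times the reads of MEF (95% interval 1.79 to 33.5) on 16 and 3 reads. That difference was called in 6 of 17 alternative fits, with limma adjusted p from 0.00038 to 0.35, and ranged from 0.19 to 1.49. Cdx2 was higher in ES by 0.94 in the fit with no filter (limma adjusted p = 4.6e-05), where 62.6% of all genes were called.

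Other genes of the trophoblast stem cell state were looked at in a list of 14, chosen with earlier results of these data known, of which 13 entered the test. Against ES they split in direction, with 6 higher, 5 lower and 2 not called in 3F+IL6, and 5 higher, 4 lower and 4 not called in 4F, where 63.4% and 67.2% of all genes were called. Their median log2 differences were 0.06 and 0.31, where those of all genes were 0.01 and 0. Between the kinds of clone limma called 0 of 13, against 1.34% of all genes. An unadjusted p under 0.05 was found for 5, and over the table for 3198 of 13200 genes. Tead4, the TEAD partner of Yap that switches on Cdx2 in the trophectoderm, was at 22.3 and 22.8 RPKM in ES, 3.58 and 3.96 in 3F+IL6, 5.02 and 5.44 in 4F, and 5.37 and 5.65 in MEF. Both ES libraries stood well above all others, and Tead4 fell by 2.30 in 3F+IL6 (limma adjusted p = 3.6e-06) and by 1.92 in 4F (limma adjusted p = 6.4e-06).

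Plet1, a surface protein gene of the ectoplacental cone and trophoblast stem cells, listed in the files as 1600029D21Rik, moved the other way. It was at 2.04 and 2.3 RPKM in ES, 9.43 and 16.7 in 3F+IL6, 13.1 and 15.7 in 4F, and 0.338 and 0.313 in MEF. All 4 clones lay above ES, with log2 differences of 2.10 (limma adjusted p = 0.00026) and 2.28 (limma adjusted p = 0.00017). Id2, an inhibitor of helix-loop-helix factors kept on in trophoblast progenitors, rose by 1.73 and 1.70 (limma adjusted p = 0.00042 and 0.00041), and was higher still in MEF, at 33.6 and 35.8 RPKM. Krt8, a keratin gene of simple epithelia such as trophectoderm, was at 60.3 RPKM in 3F+IL6 clone 2 and 22.3 to 30.1 in the other clones, against 17 and 17.2 in ES.

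Genes of differentiated trophoblast ran from absent to well expressed, with Phlda2 at 50.4 to 80.1 RPKM in the clones and 22 and 22.4 in ES. Tpbpa of spongiotrophoblast, Prl3b1 and Ctsq were listed at 0 in all 8 libraries, and Synb, the syncytin of labyrinth syncytium, at 0 in 7 of them. Of the 16 genes in the list, 8 entered the test. In 3F+IL6 against ES 7 were higher and 1 lower, and in 4F 6 were higher, 1 lower and 1 not called, where 63.4% and 67.2% of all genes were called. Their median log2 differences were 1.30 and 1.28, and those of all genes 0.01 and 0. Between the kinds of clone limma called 0 of 8, against 1.34% of all genes. At an unadjusted p under 0.05 there was 1, against 3198 of all 13200 genes. Cdkn1c, the cell cycle inhibitor p57 of giant cells, was at 1.04 and 0.789 RPKM in ES, 14 and 11 in 3F+IL6, 11 and 8.26 in 4F, and 7.01 and 7.08 in MEF, so that the clones lay above both reference cell types. Ovol2, a zinc finger factor of the labyrinth, was 1.17 and 1.19 RPKM in ES and 5 to 5.9 in the clones, and rose by 1.58 in 3F+IL6 and by 1.56 in 4F (limma adjusted p = 2.9e-05 and 3.2e-05). Prl2c2, a proliferin of giant cells, was listed at 0 in ES, at 9.64 to 15.9 RPKM in the clones and at 11 and 11.9 in MEF. It belongs to a family of near-identical copies, so its reads may be shared among them. Peg10, the gene called lower, fell from a mean of 122 RPKM in ES to 63.4 in 3F+IL6 and 57.7 in 4F. Its limma adjusted p was 0.022 and 0.019. Flt1, counted among the higher genes, was at 25.3 and 24.9 RPKM in MEF and 1.08 to 1.97 in the clones. Dlx3, also counted there, entered the test only through the clones, at 0.641 to 2.7 RPKM against 0.145 and 0.28 in ES.

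**Figure D3:**
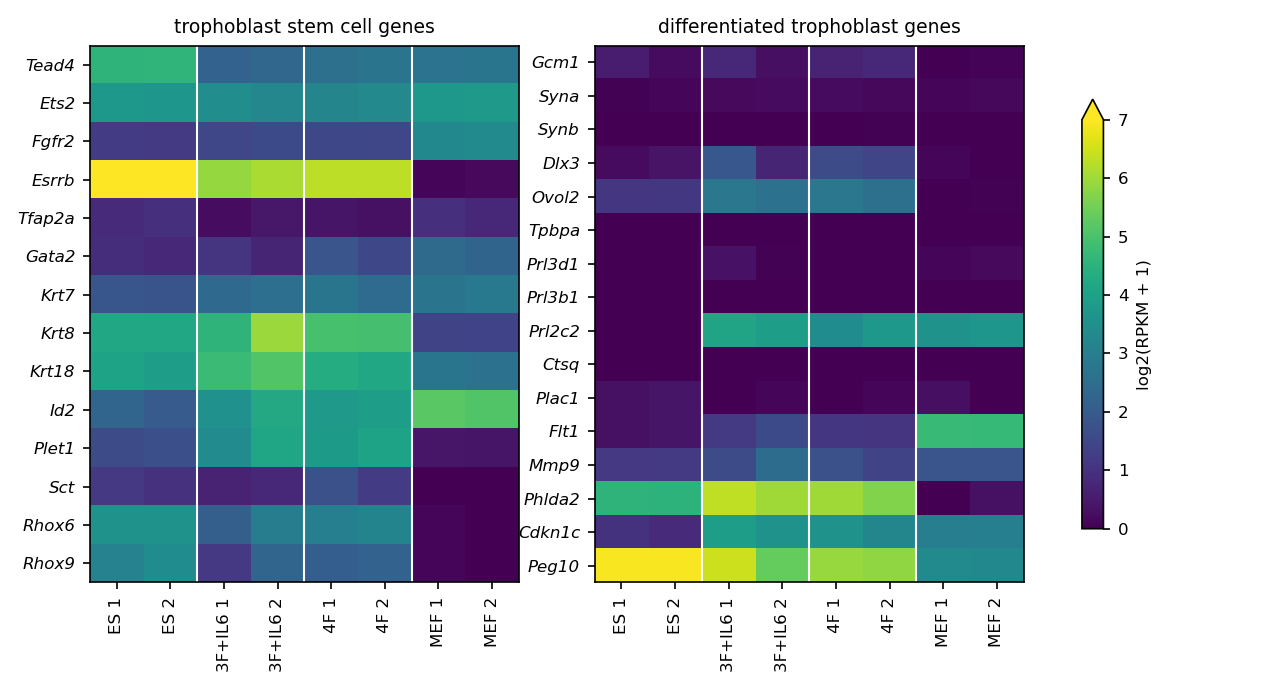
Colour gives log2(RPKM + 1) for 14 trophoblast stem cell genes (left) and 16 differentiated trophoblast genes (right) in the 8 libraries, with white lines between groups. Tead4 is brightest in ES, Plet1, Cdkn1c and Phlda2 are brighter in the clones than in ES, and Tpbpa, Prl3b1 and Ctsq are at 0 throughout.

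Genes that act upstream of Cdx2 and genes that hold trophoblast genes down were present in the clones. Of 9 genes of Hippo, Notch and FGF signalling that feed into Cdx2, 4 were higher and 4 lower in 3F+IL6 than in ES, and 3 and 4 in 4F, where 63.4% and 67.2% of all genes were called. Rbpj, the DNA-binding partner of Notch, was at 162 and 164 RPKM in ES, 56.1 and 54.5 in 3F+IL6, and 52.8 and 62 in 4F. The clones lay below ES, with log2 differences of −1.54 and −1.5 (limma adjusted p = 1.1e-05 and 1.2e-05). Fgf4, the ligand that sustains trophoblast stem cells from the epiblast, was 32.4 and 32.9 RPKM in ES and 89.4 to 96.3 in the clones, and rose by 1.5 and 1.45 (limma adjusted p = 5e-06 and 5.9e-06). Yap1, the coactivator that works with Tead4, fell by 0.53 in 3F+IL6 (limma adjusted p = 0.00047) and by 0.64 in 4F (limma adjusted p = 0.00019). Amot, the angiomotin that holds Yap1 out of the nucleus, was at 0.646 and 0.792 RPKM in ES, 1.79 and 8.55 in 3F+IL6, 1.62 and 1.91 in 4F, and 10.2 and 9.78 in MEF. It rose in 3F+IL6 by 1.59 (limma adjusted p = 0.024), and the 3F+IL6 clones lay far apart.

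Of 9 repressors of trophoblast genes, 4 were higher and 3 lower in 3F+IL6 than in ES, and 3 and 4 in 4F, against the same 63.4% and 67.2% of all genes called. Ehmt2, the histone H3 lysine methyltransferase G9a, was at 22 and 21.9 RPKM in ES and 76.8 to 96.4 in the clones, and rose by 1.93 and 1.80 (limma adjusted p = 1.1e-05 and 1.5e-05). Nanog, a factor of pluripotency, fell by 0.82 in 3F+IL6 and by 0.50 in 4F (limma adjusted p = 0.00033 and 0.0028). Setdb1, another histone H3 lysine methyltransferase, fell by 0.53 and 0.67 (limma adjusted p = 0.0044 and 0.0014). Sall4, a zinc finger factor of pluripotency, fell by 0.63 in 4F (limma adjusted p = 0.0071). Pou5f1 did not pass the test against ES in either kind of clone.

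Among 16 nearest relatives of the 8 genes, 8 entered the test. In 3F+IL6 against ES 4 were higher and 2 lower, and in 4F 4 were higher and 1 lower, where 63.4% and 67.2% of all genes were called. Gata1 and Tbx21, higher in both kinds of clone, entered the test only through the clones. Comparing 3F+IL6 with 4F, limma called 0 of 8, against 1.34% of all genes. At an unadjusted p under 0.05 there were 2, against 3198 of all 13200 genes. Elf3, an epithelial ETS factor related to Elf5, was at 12 and 11.9 RPKM in ES, 60.1 and 19.9 in 3F+IL6, 51.4 and 47.9 in 4F, and 0.028 and 0.0274 in MEF. All clones were above ES, and 3F+IL6 clone 2 was the lowest of them. It rose by 1.46 (limma adjusted p = 0.02) and 1.96 (limma adjusted p = 0.0051). Rhox5, a homeobox gene of the X chromosome expressed in placenta, was at 129 RPKM in both ES libraries, 44.1 and 81.3 in 3F+IL6, and 117 and 131 in 4F. It fell by 1.09 in 3F+IL6 (limma adjusted p = 0.0064) and was not called in 4F, where it overlapped ES. Between 3F+IL6 and 4F its log2 difference of −1.04 was not called (limma adjusted p = 0.079). Gata6, the primitive endoderm relative of Gata3, fell by 0.97 and 0.92 (limma adjusted p = 0.00053 and 0.0006), and Gata2, a relative also active in trophoblast, rose in 4F by 0.83 (limma adjusted p = 0.003).

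For the genes with a second tissue, markers of that tissue were read beside them. Of the germ cell genes that accompany Tfap2c, Dppa3 was at 0.724 and 0.845 RPKM in ES and 12.8 to 15.5 in the clones, Dazl at 94.3 and 95.4 in ES and 1.68 to 4.39 in the clones, and Prdm14 at 10.7 and 11.5 in ES and 4.98 to 5.93 in the clones. They moved in both directions, 2 higher and 3 lower of 5 tested in each kind of clone against ES, where 63.4% and 67.2% of all genes were called. Of the higher genes, Dppa3 entered the test only through the clones. Ddx4, a helicase gene of germ cells, fell by 1.84 and 1.54 (limma adjusted p = 3.5e-05 and 7.4e-05). Hand2, which acts with Hand1 in lateral mesoderm, was at 4.59 and 4.84 RPKM in MEF and at most 0.312 in any other library, and rose in 3F+IL6 over ES by 0.27 (limma adjusted p = 0.045). That rise rests on 0 and 2 reads in ES and 5 and 10 in 3F+IL6. Kdr, a receptor of early mesoderm, fell by 0.27 and 0.30 (limma adjusted p = 0.038 and 0.023), and Krt14, a keratin of squamous epithelium, rose by 0.50 and 0.47 (limma adjusted p = 0.035 and 0.042), at low levels in both ES and clones. Hand2, Kdr and Krt14 entered the test only through MEF, where Kdr was at 1.65 and 1.66 RPKM and Krt14 at 2.28 and 1.69. Summed levels of 6 lateral mesoderm and heart markers were 2.71 and 2.98 RPKM in ES, 2.87 to 3.81 in the clones and 7.82 and 7.95 in MEF, and those of 5 squamous epithelium markers were 9.55 and 10.6 in ES, 11.2 to 18.1 in the clones and 2.57 and 2.99 in MEF. Most of the squamous sum in ES and clones was Krt17, at 9.28 to 17.3 RPKM there and 0.237 and 0.256 in MEF. Krt5 and Krt14 were highest in MEF, and Trp63 and Dsg3 were near 0 throughout. The part of germ, mesoderm or squamous cells in the values of Tfap2c and Hand1 was not tested. Of 6 fibroblast markers, 5 were higher and 1 lower than in ES in each kind of clone. Over all genes 63.4% and 67.2% were called. Dcn rose over ES by 5.67 in 3F+IL6 and 4.72 in 4F, Col1a2 by 4.82 and 4.45, and Col1a1 by 4.55 and 4.31 (limma adjusted p from 2.8e-06 to 6.4e-06). Twist1 was the marker that fell, with log2 differences of −0.45 and −0.26 (limma adjusted p = 0.0044 and 0.042). Dcn was at 44.1 and 66.6 RPKM in 3F+IL6, 30.9 and 24.5 in 4F, and 34.7 and 33.7 in MEF.

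Ascl2 lies in an imprinted cluster on chromosome 7, in which Ascl2, Cdkn1c, Phlda2 and Slc22a18 are expressed from the maternal copy and the long RNA Kcnq1ot1 from the paternal copy. Genes within 800 kb of Ascl2 were therefore read out, a window chosen after their values were seen. Of 38 genes in the tables, 19 entered the test, Ascl2 included. Against ES, 13 were higher, 4 lower and 2 not called in 3F+IL6, and the counts were the same in 4F. Over all genes 63.4% and 67.2% were called, 33.1% and 33.7% higher. Cdkn1c, 491.8 kb from the start of Ascl2 toward higher coordinates, rose by 2.81 and 2.46 (limma adjusted p = 1.7e-05 and 3e-05), and Phlda2, a growth-restraining gene of the placenta at 533.9 kb, by 1.63 and 1.31 (0.00017 and 0.0004). Tnfrsf23 at 716.6 kb rose by 1.98 and 1.48, and stood higher still in MEF, at 18 and 16.8 RPKM. Of the other genes called higher, Ctsd, Lsp1, Cd81 and Osbpl5 were also highest in MEF. Mrpl23, Slc22a18 and Cars were highest in the clones.

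The nearest tested gene moved the other way. Tspan32, 35.8 kb away, was at 1.58 and 1.5 RPKM in ES and 0.0829 to 0.25 in the clones, and fell by 1.17 and 1.09 (limma adjusted p = 5.8e-05 and 7.7e-05). It entered the test only through the ES libraries, with 0 in MEF, and its fit with no filter is not given here. Kcnq1ot1 was at 2.56 and 2.68 RPKM in ES, 0.857 and 1.53 in 3F+IL6, 0.76 and 1.02 in 4F, and 0.469 and 0.493 in MEF. It fell by 0.74 (limma adjusted p = 0.0047) and 0.94 (limma adjusted p = 0.0015), but it lies within Kcnq1 on the other strand, so its reads may come from either. H19 and Igf2, of the neighbouring imprinted cluster, rose by 0.82 and 0.70 in 3F+IL6 and by 0.59 and 0.28 in 4F, and stood far higher in MEF, at 195 to 196 and 147 to 148 RPKM. These values do not tell maternal from paternal transcripts.

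**Figure D4:**
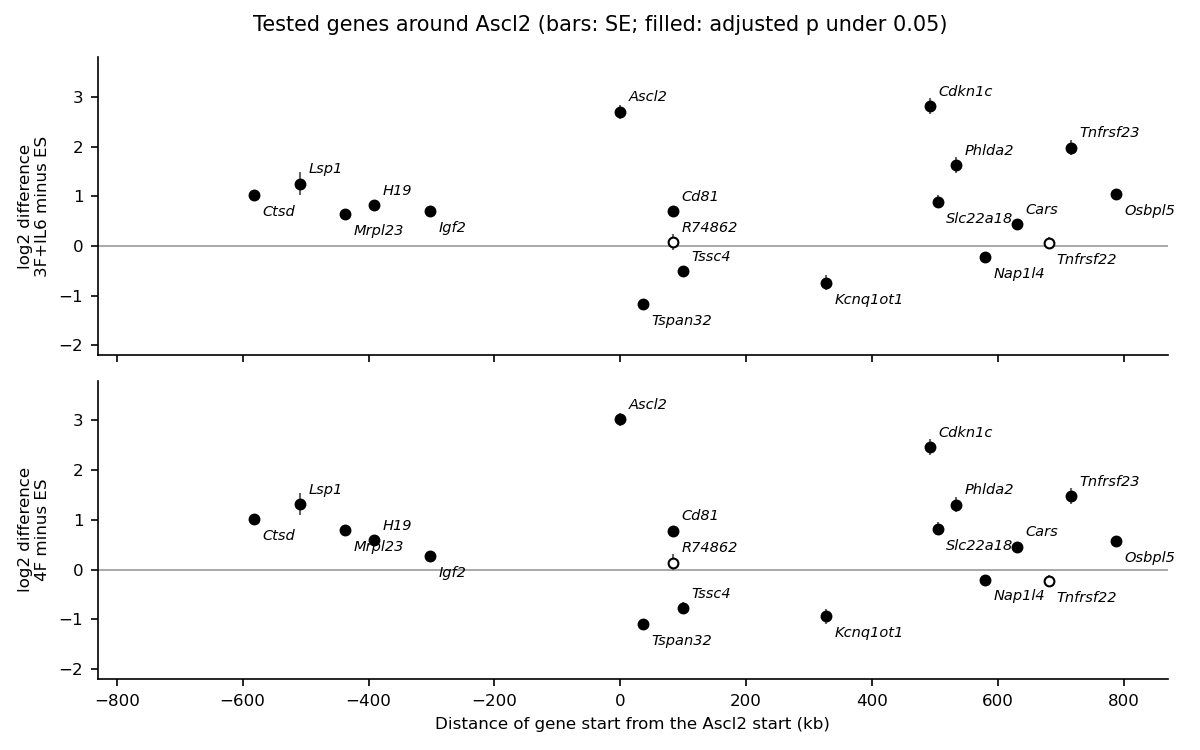
Log2 difference from ES (vertical axes) of the 19 tested genes within 800 kb of Ascl2, by distance of the gene start from the Ascl2 start in kb (horizontal axis), for 3F+IL6 (top) and 4F (bottom). Bars are standard errors and filled points have an adjusted p under 0.05. Ascl2 and Cdkn1c stand highest and Tspan32 and Kcnq1ot1 lowest in both panels.

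Over the 8 libraries, the 6 tested genes ran in different patterns. Pearson correlations on log2(RPKM + 1) were 0.93 between Esx1 and Hand1, 0.89 between Esx1 and Eomes, −0.98 between Gata3 and Tfap2c, and 0.1 between Ascl2 and Esx1. These describe 8 libraries in 4 groups, which share the group differences. Among all tested genes, those most like Ascl2 were Dnaic1 (r = 0.999), a dynein chain gene of cilia, 2010001M09Rik (0.9989) and Slc1a3 (0.9984), a glutamate transporter gene. Slc1a3 was at 1.64 and 1.65 RPKM in ES, 8.66 to 10.8 in the clones and 1.03 and 1.06 in MEF. Those most like Esx1 were Lsmd1 (0.997), Lifr (0.9956), the receptor of the cytokine LIF, and Ubr3 (0.9954). Lifr was at 6.99 and 7.03 RPKM in ES, 2.84 and 2.78 in 3F+IL6, 3.88 and 4.09 in 4F, and 1.22 and 1.17 in MEF.

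Gata3 was most like Nt5dc3 (0.9998), Rock2 (0.9988), a kinase gene of the cytoskeleton, and Amotl1 (0.9987), an angiomotin relative. Rock2 was at 70.5 and 71.6 RPKM in MEF and 8.96 to 18.9 in the other libraries. Tfap2c was most like Myh7b (0.9989), Stac2 (0.9986) and Ccdc117 (0.9986), and Stac2 shared the low value in 3F+IL6 clone 2, at 7 against 11.1 RPKM in clone 1. For Eomes they were Nudcd3 (0.9951), a symbol turned into a date in the deposited table (0.9947) and Ppih (0.9911), and for Hand1 Hsdl2 (0.985), Me2 (0.975) and Fam134b (0.9734). Me2, a mitochondrial malic enzyme gene, was at 40.1 RPKM in 3F+IL6 clone 2 and 51.4 to 53.5 in the other clones.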

How the data were processed

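Per the labels' protocols, the TruSeq mRNA kit was used on 500 ng of total RNA with oligo-dT selection, and reads were 50 bp long. The submitters' processing notes name mm10. Aligner, counting tool, strand setting and gene models are not given in the sources. The authors deposited a single value per gene symbol and library, read here as RPKM because no header names a unit: low values are whole multiples of a step that scales with gene length. A stray header line in each table was dropped.

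Of 18510 genes above 0 in at least 2 libraries, 10372 (56%) gave whole reads in each library within 0.02 read, and 7247 of them also had an implied length within 10% of a GENCODE M21 transcript. Read ratios carry exact conditional intervals on group totals scaled to depth. Reads are descriptions, and no count test was run.

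limma 3.58.1 in R 4.3.3 was fitted with trended empirical Bayes variance on log2(RPKM + 1), group as the only term and 6.94 degrees of freedom, and was tested on simulated data. The p-values measure the spread between libraries labelled as replicates. The 8 genes and all lists were chosen with earlier results of these data known. From each list, up to 3 called genes per comparison with the largest differences and no overlap were picked, with genes at 0 throughout and the 3 genes most correlated with each tested gene. The text gives those picked against ES, and of those picked against MEF alone only some. Synb, T, Twist1 and the genes around Ascl2 outside the lists were chosen after their values were seen. Coordinates are mm10, 1-based. Alternatives were other pseudocounts, filters, normalizations, variance models, sample sets, a replicate block and leaving out each library.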

Additional observations from a re-analysis of the deposited data

How the results depend on the processing

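Over 36 log2 differences of the 6 tested genes and 18 alternative settings, 572 of 618 values kept their direction and their side of the threshold. Of the others 26 lost a call, 14 gained one and 6 changed sign or became 0. The Ascl2, Esx1 and Gata3 differences of both kinds of clone from ES and from MEF were called in all 17 settings run for them. The changes of sign were in Gata3 between the kinds of clone, at −0.01 with quantile normalization and −0.05 (4F clone 1 left out) to 0.14 (4F clone 2 left out) when single libraries were dropped, −0.03 for 3F+IL6 clone 2, none called. Tfap2c in 3F+IL6 against ES was 0 with quantile normalization and −0.37 to 0.45 on dropping 3F+IL6 clone 1 or 2, and Hand1 in 3F+IL6 against MEF was −0.12 with quantile normalization. The cause was not tested.

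Between the kinds of clone, 1 trophoblast gene was called in the test as reported, and 0 with a pseudocount of 0.1 or 0.5, no filter, quantile normalization, only the 4 clones, array weights or the replicate block. Leaving out each library gave 0 to 4, the 4 being without 3F+IL6 clone 1. At an unadjusted p under 0.05 there were 2 in most of these and 1 in the fit of only the 4 clones. In the test as reported, 3198 of all 13200 genes had an unadjusted p under 0.05. With a mean RPKM of at least 5 only Tfap2c was tested, and the count was 0 between the kinds of clone and in 3F+IL6 against ES, and 1 in 4F against ES, 3F+IL6 against MEF, 4F against MEF and ES against MEF. The count over the whole table between the kinds of clone was 177, and 56 with a pseudocount of 0.1, 315 with quantile normalization, 12 with only the 4 clones, 5 with array weights, 36 with the replicate block and 6 to 4802 on leaving out each library.

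Deviations of same-numbered libraries correlated from −0.06 to 0.21 between groups, so the numbers were not taken as pairs. With the replicate block, the Esx1 difference between the kinds of clone was −0.80 (limma adjusted p = 0.062). Depth limits Elf5 and Cdx2, with 10 and 64 reads over all libraries.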
